A study of Mus musculus with 8 samples.

Results

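Imprinted long noncoding RNAs were followed through the nuclear fractions of HL1 cells, an established mouse line of atrial muscle cells that came from the AT-1 tumour lineage. The 8 members were Kcnq1ot1, Airn, Meg3, Rian, Mirg, H19, Peg13 and Nespas, chosen by name, and each was read as the assembled rows on its strand that overlap its GENCODE M21 gene on mm10. These were 8 genes in a table of 65265 rows, and the second table held 196683 long-read transcripts. Where no assembled row overlapped a member (Meg3, Rian and Mirg), its RefSeq accession rows were used instead.

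Nuclei were extracted with urea and detergent, and the supernatant was kept as nucleoplasm and the pellet as chromatin. Short-read libraries were made from 100 ng of RNA depleted of ribosomal RNA with a kit that keeps the strand, 3 from chromatin and 3 from nucleoplasm, and 2 long-read direct cDNA libraries were made from chromatin only. All HL1 cells were untreated in the design and were grown in Claycomb medium with 0.1 mM norepinephrine, so no group carried a genotype or a drug that another lacked. The short-read fractions came from 3 independent cultures, all of a single established line, and the fraction of each library was taken from its title because another label field gave chromatin for the nucleoplasm libraries too.

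Imprinted genes are expressed mainly from the allele of a single parent, and they sit in clusters that share a control region whose DNA is methylated on one of the parental chromosomes. Several clusters are governed by a long noncoding RNA that is transcribed from the unmethylated control region and remains near its own gene. Airn and Kcnq1ot1 are the best known of these, are made from the paternal chromosome in antisense orientation to Igf2r and Kcnq1, and repress neighbouring genes in cis, partly through Polycomb and the histone methyltransferase G9a. The values here are summed over both alleles, so parental origin was not measured.

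Windows around annotated starts are printed for the pair highest in chromatin relative to nucleoplasm, Airn and Kcnq1ot1, and for both annotated starts of Meg3, which had almost no reads. Each window holds 250 bases before to 50 bases after the start on the strand of the gene, from RefSeq on GRCm38.p6, with CG dinucleotides, the sites of DNA methylation, in capitals.
Airn, chr17:12741061-12741360, plus strand: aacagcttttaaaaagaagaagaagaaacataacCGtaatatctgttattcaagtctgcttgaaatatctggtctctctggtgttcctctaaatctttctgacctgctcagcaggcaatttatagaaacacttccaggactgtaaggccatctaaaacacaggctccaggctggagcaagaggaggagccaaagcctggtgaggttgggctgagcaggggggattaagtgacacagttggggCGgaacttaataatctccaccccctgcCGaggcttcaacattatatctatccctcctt
Kcnq1ot1, chr7:143296498-143296797, minus strand: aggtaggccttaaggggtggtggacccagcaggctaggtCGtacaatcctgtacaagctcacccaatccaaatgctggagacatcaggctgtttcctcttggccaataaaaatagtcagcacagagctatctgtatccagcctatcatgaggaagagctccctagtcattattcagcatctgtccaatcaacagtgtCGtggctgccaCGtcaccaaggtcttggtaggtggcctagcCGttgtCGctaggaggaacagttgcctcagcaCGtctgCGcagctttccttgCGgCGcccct
Meg3, chr12:109540746-109541045, plus strand: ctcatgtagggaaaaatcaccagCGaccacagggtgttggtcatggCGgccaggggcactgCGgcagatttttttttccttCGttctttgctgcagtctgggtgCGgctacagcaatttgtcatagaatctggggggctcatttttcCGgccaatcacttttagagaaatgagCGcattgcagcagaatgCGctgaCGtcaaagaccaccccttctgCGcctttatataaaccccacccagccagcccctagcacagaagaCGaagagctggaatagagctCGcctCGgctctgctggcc
Meg3 internal start, chr12:109545148-109545447, plus strand: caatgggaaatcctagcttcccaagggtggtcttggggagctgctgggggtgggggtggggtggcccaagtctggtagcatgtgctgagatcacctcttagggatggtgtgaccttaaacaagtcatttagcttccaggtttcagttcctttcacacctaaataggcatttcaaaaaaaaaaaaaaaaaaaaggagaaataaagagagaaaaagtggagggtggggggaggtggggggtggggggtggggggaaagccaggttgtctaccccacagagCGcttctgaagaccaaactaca

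The only Meg3 row with reads begins at the internal start, with 4 reads in chromatin and 3 in nucleoplasm, and the rows that begin at the first start had none. These rows overlap, and so few reads do not show which start was used. The Airn window held 3 CG dinucleotides, the Kcnq1ot1 window 9, the first Meg3 window 13 and the internal Meg3 window 1, while the median of 32851 such windows was 7. At least as many CG dinucleotides as in the Airn window were found in 76.7% of all windows, as many as in the Kcnq1ot1 window in 45.8%, and as many as in the Meg3 windows in 37.9% and 94.6%. The motif CCAAT, searched on both strands as CCAAT and ATTGG, occurred 3 times in the Kcnq1ot1 window, 1 time in the first Meg3 window and 0 times in the Airn and internal Meg3 windows, and 37.4% of all windows held it. The motif TATAAA, searched on both strands as TATAAA and TTTATA, occurred 1 time in the Airn window, 2 times, overlapping, in the first Meg3 window and 0 times in the Kcnq1ot1 and internal Meg3 windows, against 13.6% of all windows. Promoter windows were matched for 5 of the 8 members.

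H19 is also the precursor of a microRNA, whose mature arms are printed because they lie inside the gene. The short-read values count the whole H19 row, and the only long-read model of the microRNA gene had 0 and 0.062 TPM. The seed, bases 2 to 8, is in capitals. Both arms lie inside the H19 gene on chromosome 7, minus strand, in GRCm38.p6.
mmu-miR-675-5p, chr7:142577112-142577133: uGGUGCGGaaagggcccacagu
mmu-miR-675-3p, chr7:142577078-142577099: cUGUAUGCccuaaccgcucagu

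The counts recovered for the short-read libraries derive from StringTie coverage and are called reads throughout, although they are not sequenced reads counted directly. They summed to 91657034 to 100595246 in the chromatin libraries and 96684935 to 121773350 in the nucleoplasm libraries. The values are counts divided by a size factor per library, called normalized counts here, and since equal amounts of RNA were used they are shares of each fraction's RNA and not amounts per nucleus. In bulk samples, fewer cells of a type and less RNA per cell cannot be told apart. Of the 10 atrial cardiomyocyte markers, 8 had a row and all 8 had reads, whereas Myh6 and Tnnt2 had no row under their name. The summed marker level in chromatin was 250134, 244728 and 136462 normalized counts, lowest in replicate 3. Ryr2 alone held 177668, 169195 and 101687 of this. In nucleoplasm the summed level was 132316, 141760 and 68405, again lowest in replicate 3. The 5 fibroblast markers summed to between 120670 and 174008 in chromatin and between 253853 and 461035 in nucleoplasm, highest in replicate 3 in both fractions. Col1a1 held most of each of these sums. The fibroblast sum exceeded the cardiomyocyte sum in every nucleoplasm library and in chromatin replicate 3, and was below it in the other chromatin libraries. Of the 4 endothelial and 4 leukocyte markers, 3 each had reads, and Cdh5 and Adgre1 were at 0. The part of these marker differences in the results was not tested.

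Each feature above 0 in at least 1 library was tested with limma on log2(normalized count + 1), so fold changes are on that scale and understate the change of low genes. Adjusted p-values are Benjamini-Hochberg values over all 35816 features tested. A feature met the thresholds the study used for chromatin-enriched RNA (cheRNA) when its adjusted p was under 0.05, its level was more than 4 fold higher in chromatin and its span exceeded 200 bp.

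Of the 8 members, 7 passed the filter and 1, Nespas, had no reads. Airn and Kcnq1ot1 were higher in chromatin and met the cheRNA thresholds, H19 was lower in chromatin, and Peg13, Meg3, Rian and Mirg did not pass the test. Over all features, 26.9% were called higher in chromatin, 20.9% lower, and 15.4% met the cheRNA thresholds. The 2 of 7 members called higher, 28.6%, were close to the share over all features. With libraries scaled to the ERCC spike-in RNAs, 12458 features were higher and 3108 lower, in place of 9631 and 7477, and over all features the median difference went from 0.38 to 0.84 on the log2 scale. That scaling adds about 0.73 to the log2 fold change of features with many reads, and less to low ones, such as Rian (1.41 to 1.70). Rian had only 7 reads in chromatin and 1 in nucleoplasm, so its value depends on the count added before the log. It was 3.44 with 0.1 added and 0.27 with 10 added.

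**Figure D1:**
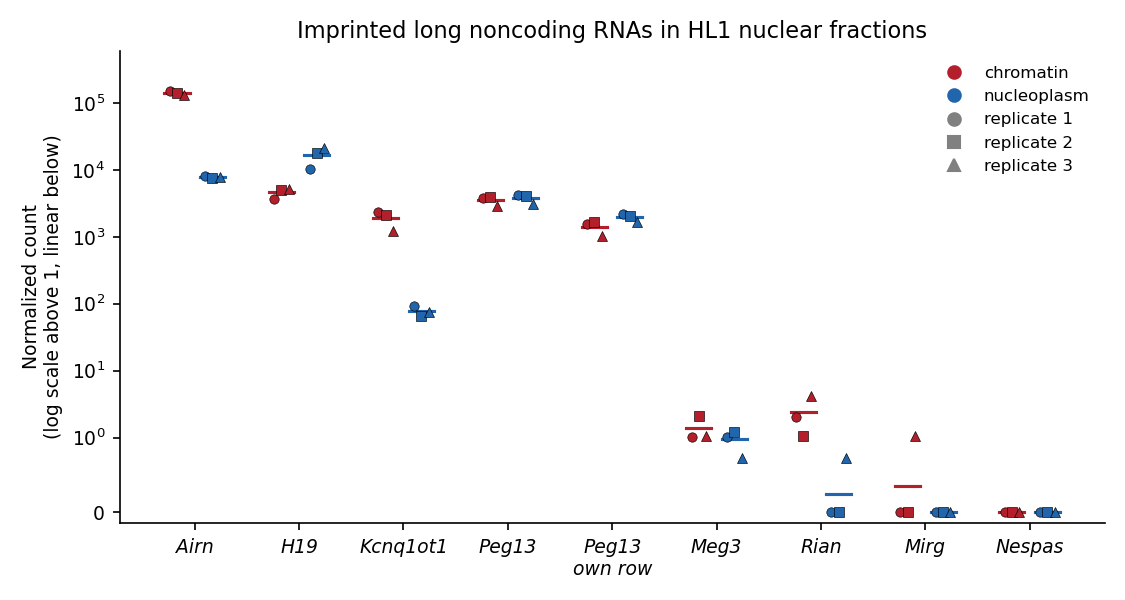
Normalized counts of each member in each short-read library, on an axis that is logarithmic above 1 and linear below. Points are libraries, with a shape for each replicate, and bars are the means of 3. Airn and Kcnq1ot1 sit higher in chromatin (red) than in nucleoplasm (blue), H19 sits lower, Peg13 overlaps as a sum and as its own row, and Meg3, Rian, Mirg and Nespas lie below 5.

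Airn, the antisense RNA of the Igf2r cluster, had the highest counts of the members in chromatin, over a long row of 162050 bp. Its gene (ENSMUSG00000078247.4) spans chr17:12741311-12860136 on the plus strand. Its rows summed to 147777, 138166 and 132718 normalized counts in chromatin and to 7959, 7505 and 7913 in nucleoplasm. Every chromatin library was far above every nucleoplasm library, and the libraries of a fraction lay close together. The difference was a log2 fold change of 4.16 (95% interval 3.93 to 4.39, SE 0.09, adjusted p = 2.28e-05 by limma, n = 3 per fraction), or 17.9 fold. The sum took 0.142% of the normalized counts of the chromatin libraries.

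The Airn sum consisted of a long and a short row. The long row covered chr17:12697835-12859884, and its start lay 43476 bp before the annotated start of Airn, inside Igf2r on the opposite strand. Its end lay 252 bp before the annotated end. The short row, nested near the start at chr17:12741425-12748528, held 12.8% of the Airn sum in chromatin. The long row averaged 121691 ± 8860 normalized counts over the chromatin libraries and 6814 ± 253 over the nucleoplasm libraries, and the short row averaged 17863 ± 1813 and 978 ± 214 (SD, n = 3 each). Both rows were thus higher in chromatin.

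Long reads from chromatin gave 11 transcript models with signal on the Airn strand inside the gene, 8 of them in both libraries. They summed to 139 TPM in long-read replicate 1 and 113 TPM in replicate 2. TPM is a share scaled for transcript length and library total, and the table keeps no read depth. None of the 11 began before the annotated start, and 4 began exactly at it, at the start used for the Airn window printed above. Most of these 4 were RefSeq transcripts, whose ends come from the annotation that guided the assembly. Their match to the annotated start is therefore built in and is not evidence from the reads. The 5 models longer than 10 kb held 74.9 and 71.9 TPM, and the 6 shorter ones, all in the distal part of the gene, held 64.6 and 41.1 TPM. The single most abundant of the short models covered 1176 bp and held 54.5 and 36.3 TPM. The longest model covered 90328 bp and was also a RefSeq transcript, so its extent comes from the annotation.

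A pair of RefSeq isoforms with the same span of 74247 bp changed places between the libraries. NR_027784.1 had 27.8 TPM in replicate 1 and was listed at 0 in replicate 2, while NR_002853.2 was listed at 0 in replicate 1 and had 37.5 TPM in replicate 2. The sum over both was therefore steadier than either. The long reads did not keep the strand, and opposite-strand models over Airn, Igf2r included, summed to 18.6 and 15.8 TPM.

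**Figure D2:**
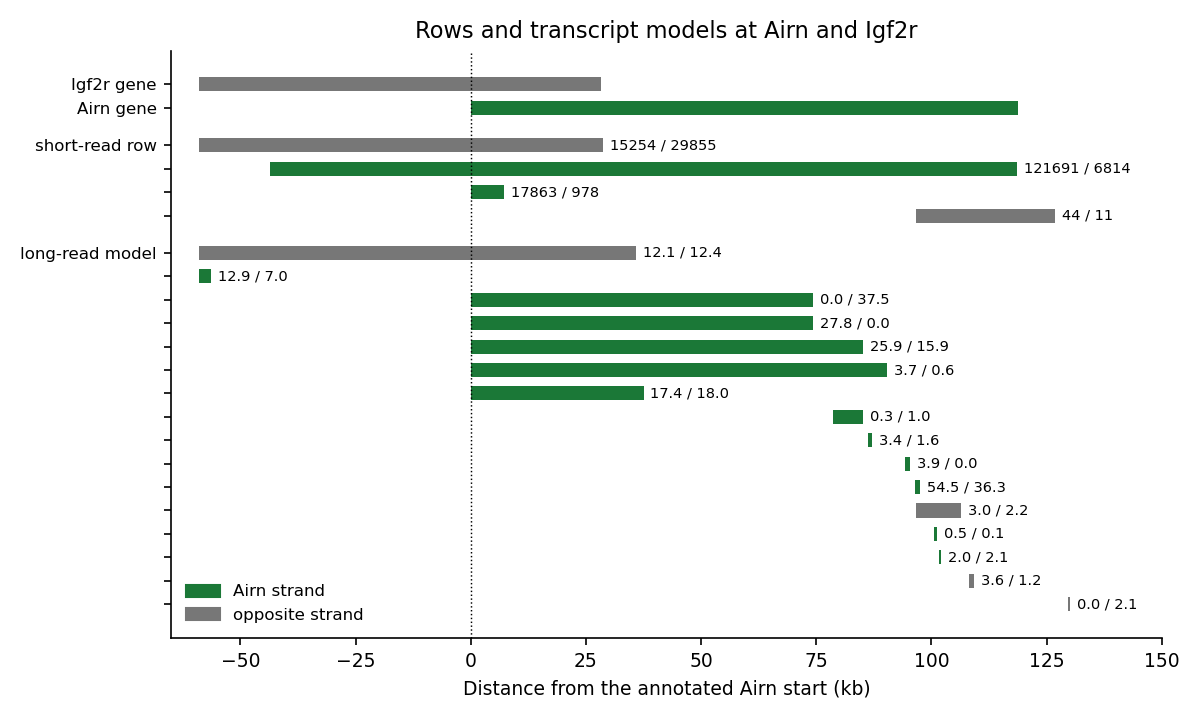
Map of the Airn and Igf2r locus in kb from the annotated Airn start, with features on the Airn strand in green and on the opposite strand in grey. Numbers beside short-read rows are mean normalized counts in chromatin and nucleoplasm, and numbers beside long-read models are TPM in replicates 1 and 2. The long short-read row reaches 43476 bp before the Airn start, where no long-read model of the gene begins.

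Igf2r, the receptor that carries insulin-like growth factor 2 to lysosomes, overlaps Airn by 28354 bp in antisense orientation. Its row held 14953, 16931 and 13877 normalized counts in chromatin and 30885, 30475 and 28205 in nucleoplasm. All nucleoplasm libraries were above all chromatin libraries, the opposite order to Airn. Its log2 fold change was -0.97 (95% interval -1.23 to -0.71, SE 0.11, adjusted p = 5.84e-04 by limma, n = 3 per fraction), and with ERCC scaling it was -0.24 (adjusted p = 0.383). Within each library, where scaling cancels, the log2 ratio of Airn to Igf2r was 3.30, 3.03 and 3.26 in chromatin and -1.96, -2.02 and -1.83 in nucleoplasm. These are ratios of counts over rows of unequal length, so only their shift between the fractions is read, and it was 5.13 in mean log2 ratio.

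Kcnq1ot1, the antisense RNA of the Kcnq1 cluster, was also higher in chromatin, at lower counts. Its gene (ENSMUSG00000101609.2) spans chr7:143203458-143296549 on the minus strand, inside Kcnq1. Its row, chr7:143213111-143296547, ended 2 bp from the annotated 5′ end and stopped 9653 bp short of the annotated 3′ end. The row has the same ends as the RefSeq transcript. These distances are therefore differences between the RefSeq and GENCODE annotations and not ends found in the reads. The row held 2345, 2101 and 1202 normalized counts in chromatin and 90.9, 65.9 and 74.6 in nucleoplasm. The fractions did not overlap, and chromatin replicate 3, in which the summed cardiomyocyte markers were also lowest, was the lowest of its fraction. The log2 fold change was 4.55 (95% interval 3.86 to 5.24, SE 0.28, adjusted p = 6.61e-05 by limma, n = 3 per fraction), or 23.4 fold.

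Kcnq1, which encodes a voltage-gated potassium channel of the heart, had 734, 767 and 382 normalized counts in chromatin and 662, 738 and 264 in nucleoplasm. The fractions overlapped, replicate 3 was lowest in each, and the log2 fold change of 0.25 (95% interval -0.91 to 1.41, adjusted p = 0.687 by limma, n = 3 per fraction) did not pass the test. The log2 ratio of Kcnq1ot1 to Kcnq1 within a library was 1.68, 1.45 and 1.65 in chromatin and -2.86, -3.49 and -1.82 in nucleoplasm. The chromatin ratio of replicate 3 lay between those of replicates 1 and 2, although both transcripts were lowest there.

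Long reads gave a single Kcnq1ot1 model, with 1.78 TPM in replicate 1 and 0.604 TPM in replicate 2. On the opposite strand, 11 models over the gene held 9.49 and 2.61 TPM, and 10 of these lay at least 80% inside it. Because these reads were unstranded, the strand of such models cannot be told apart from that of Kcnq1ot1 itself. Summed over both strands, the level was 11.3 and 3.22 TPM.

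H19, the maternally expressed RNA next to Igf2 and the source of the miR-675 arms printed above, went the other way. Its gene (ENSMUSG00000000031.16) spans chr7:142575529-142578143 on the minus strand. It had 3606, 5014 and 5139 normalized counts in chromatin and 10142, 17692 and 21338 in nucleoplasm. Every nucleoplasm library was above every chromatin library, and nucleoplasm replicate 1 was well below the other nucleoplasm libraries. The log2 fold change was -1.79 (95% interval -2.53 to -1.05, SE 0.30, adjusted p = 0.00361 by limma, n = 3 per fraction), or 3.45 fold higher in nucleoplasm. It was -2.10 without nucleoplasm replicate 1. With ERCC scaling the difference was -1.05 (adjusted p = 0.0775) and no longer passed the test.

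Igf2, the fetal growth factor that shares enhancers with H19, was read as the sum of 6 RefSeq rows. It had 147, 200.2 and 65.6 normalized counts in chromatin and 723, 726 and 282 in nucleoplasm. The fractions did not overlap and the log2 fold change was -2.08 (95% interval -3.41 to -0.74, SE 0.55, adjusted p = 0.0217 by limma, n = 3 per fraction). That call was lost without chromatin replicate 1 (-2.20, adjusted p = 0.0614), chromatin replicate 3 (-1.62, 0.0512), nucleoplasm replicate 1 (-1.85, 0.0726) or nucleoplasm replicate 2 (-1.85, 0.0739, all by limma), and with no filter on low features (adjusted p = 0.0820). The log2 ratio of H19 to Igf2 was 4.61, 4.65 and 6.29 in chromatin and 3.81, 4.61 and 6.24 in nucleoplasm. These ranges overlapped, and replicate 3, with the highest summed fibroblast markers, had the highest ratio in both fractions.

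Peg13, a paternally expressed RNA inside an intron of Trappc9 on the same strand, lay at chr15:72805600-72810324 (ENSMUSG00000106847.1, minus strand). Its overlapping rows included that of Trappc9, which held 59.8% of the sum in chromatin and 48.1% in nucleoplasm. The sum was 3818, 3910 and 2857 normalized counts in chromatin and 4139, 4055 and 3111 in nucleoplasm, and the fractions overlapped. The log2 fold change was -0.10 (95% interval -0.52 to 0.33, adjusted p = 0.661 by limma, n = 3 per fraction), and with ERCC scaling it was 0.64 (adjusted p = 0.0161), a change of direction.

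The row of Peg13 itself had 1544, 1689 and 1026 normalized counts in chromatin and 2182, 2011 and 1670 in nucleoplasm. The highest chromatin library was just above the lowest nucleoplasm library, so the fractions overlapped. Its log2 fold change of -0.48 did not pass the test without pairing (adjusted p = 0.118 by limma, n = 3 per fraction). The row was lower in chromatin at each replicate number, and with a replicate block the same fold change passed (adjusted p = 0.0211 by limma). The call thus depended on whether replicate numbers were taken as pairs. The fold change was -0.37 and passed without the libraries of replicate 3 (adjusted p = 0.0244), and was 0.25 with ERCC scaling (adjusted p = 0.385). Trappc9, a subunit of a vesicle trafficking complex, had 2274, 2221 and 1831 normalized counts in chromatin and 1957, 2044 and 1441 in nucleoplasm. Its log2 fold change was 0.23 (adjusted p = 0.331 by limma), and with ERCC scaling it was 0.96 and passed (adjusted p = 0.00161).

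The log2 ratio of the Peg13 row to Trappc9 was -0.56, -0.39 and -0.84 in chromatin and 0.16, -0.02 and 0.21 in nucleoplasm. The ratios of the fractions did not overlap for Peg13, Airn and Kcnq1ot1, and overlapped for H19. A two-sided exact permutation test of the 4 ratios gave p = 0.1 for each of the first 3, the smallest value that 3 against 3 libraries allow, and p = 0.5 for H19, or 0.133 and 0.5 after Benjamini-Hochberg adjustment. These tests cannot reach 0.05 at this sample size. How often ratios of other gene pairs do not overlap was not counted, and 26.9% of all features were called higher in chromatin and 20.9% lower. Lack of overlap is therefore not read as particular to these pairs. The mean shift in log2 ratio was -0.71 for Peg13, against 5.13 for Airn and 4.32 for Kcnq1ot1.

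**Figure D3:**
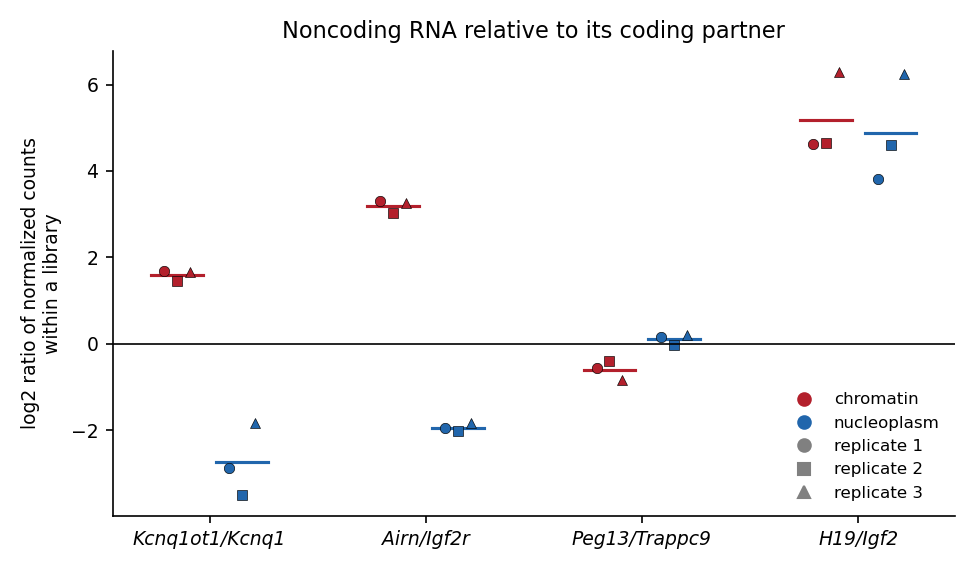
log2 ratio of each noncoding RNA to its coding partner within each short-read library, with bars at the means of 3 libraries and a shape for each replicate. Airn/Igf2r lies near 3.20 in chromatin (red) and -1.94 in nucleoplasm (blue), whereas the H19/Igf2 ratios overlap.

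Meg3, Rian and Mirg, the maternally expressed RNAs of the Dlk1-Dio3 cluster on chromosome 12, were barely detected. Meg3 (chr12:109541001-109571726, plus strand) had 4 reads in the 3 chromatin libraries together and 3 in nucleoplasm. Rian (chr12:109603940-109661716, plus strand), which hosts small nucleolar RNAs, had 7 and 1. Mirg (chr12:109729764-109749460, plus strand), which hosts microRNAs, had 1 and 0. None passed the test, with adjusted p-values by limma of 0.616, 0.0654 and 0.514. No fold is read from them because the counts were at or near the floor of 3 reads per library. For Meg3 and Mirg a difference between the fractions was not detectable at this depth, and the call of Rian, with 8 reads in all, depended on the fit (adjusted p = 0.0447 without a mean-variance trend and 0.0430 without chromatin replicate 2). Rows of smaller RNAs lie inside them, 2 in Meg3, 10 in Rian and 14 in Mirg, and only 1 of these, in Rian, had any read, with a total of 1. Of the coding genes of this cluster, Dlk1 was at 0 in all 6 libraries.

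Nespas (chr2:174281237-174295436, minus strand), the antisense RNA of the Gnas cluster, had an assembled row with 0 reads in each of the 6 libraries. A count of 0 allows up to 3 reads per library, or at most 2.17 to 3.6 normalized counts, as far as counting error goes. Gnas, which encodes the stimulatory G protein alpha subunit, was read well on the other strand, with 9529, 11197 and 9176 normalized counts in chromatin and 35990, 37079 and 32376 in nucleoplasm. It was lower in chromatin by a log2 fold change of -1.82 (95% interval -2.10 to -1.54, adjusted p = 6.79e-05 by limma, n = 3 per fraction), and with ERCC scaling by -1.09 (adjusted p = 0.00378).

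**Figure D4:**
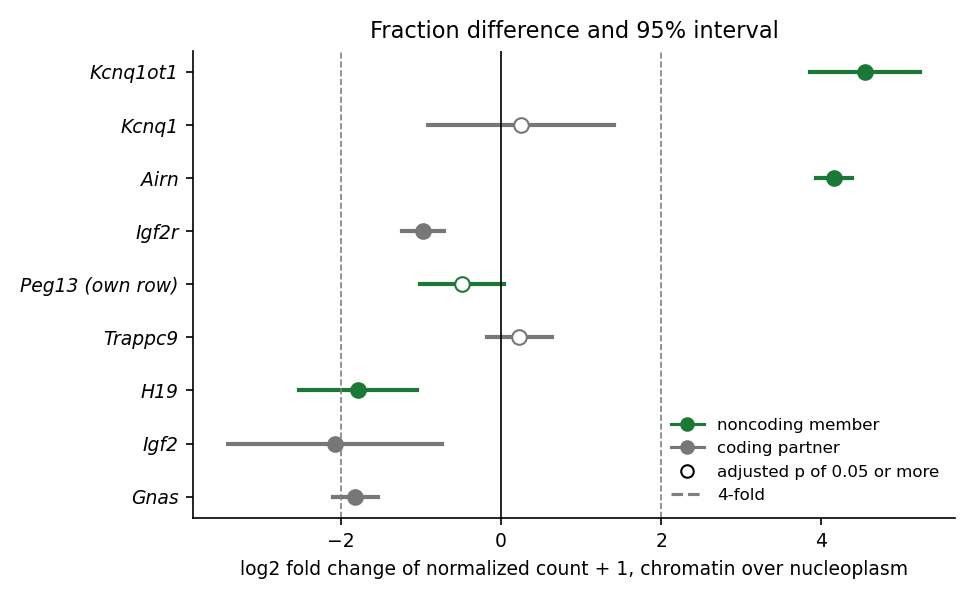
log2 fold change of chromatin over nucleoplasm, on normalized count + 1, with the 95% interval of limma for the members with many reads (green) and their coding partners (grey). Filled points passed an adjusted p of 0.05, and dashed lines mark 4 fold. Airn and Kcnq1ot1 lie at 4.16 and 4.55, Peg13 is shown by its own row, and no coding partner lies above 0.25.

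In the long-read libraries, H19 had 4.21 and 4.43 TPM on its strand, and the overlapping models of Peg13 had 6.45 and 6.49 TPM, of which its own transcript had 1.59 and 2.29. On the strand of each gene, Airn was thus first by a wide margin, and the order of the rest depended on the models counted. Kcnq1ot1 was last on its own strand, whereas its sum over both strands averaged 7.24 TPM, above the 6.47 TPM of the Peg13 sum, most of it from Trappc9 models, and the 4.32 TPM of H19. The transcript of Peg13 alone was below H19 in both libraries, and it was below Kcnq1ot1 in replicate 1 and above it in replicate 2. Meg3, Rian, Mirg and Nespas were listed at 0 in both libraries on both strands.

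**Figure D5:**
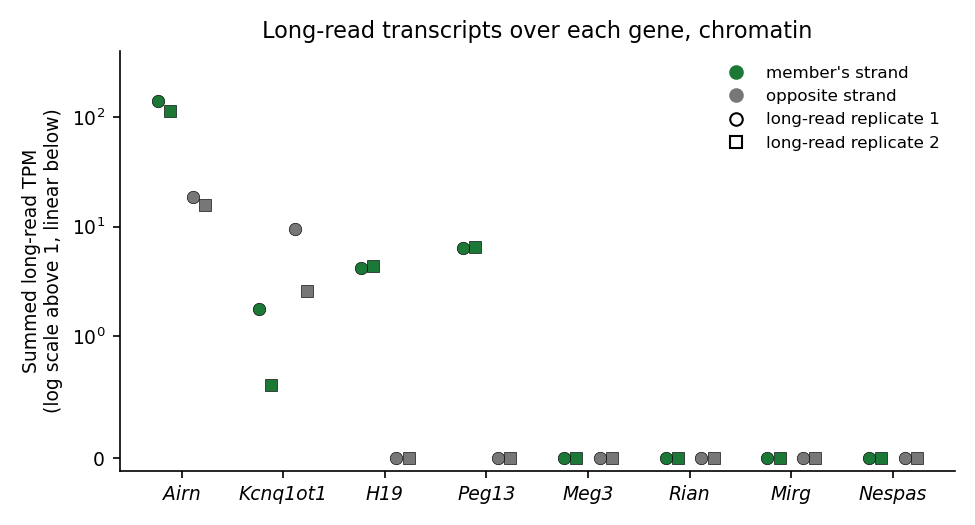
Summed long-read TPM over each gene in the 2 chromatin libraries (circles and squares), on the strand of the member (green) and on the opposite strand (grey). The axis is logarithmic above 1 and linear below. Airn reaches 139 and 113 TPM on its strand, Kcnq1ot1 has more signal on the opposite strand than on its own, and 4 members are at 0.

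Levels of different genes are compared per length. In chromatin, the mean level per kb of row span was 1753 ± 325 normalized counts for H19, 861 ± 47.1 for Airn, 301 ± 73.8 for the Peg13 row and 22.6 ± 7.21 for Kcnq1ot1 (SD, n = 3 each). Neighbours in this order lay apart by more than their SDs. In nucleoplasm, the mean level per kb was 6263 ± 2182 for H19, 414 ± 55.2 for Peg13, 48.1 ± 1.54 for Airn and 0.925 ± 0.152 for Kcnq1ot1 (SD, n = 3 each), so Airn and Peg13 exchanged places between the fractions. The order depended on the length used. Per kb of annotated exon the chromatin level of Airn was 38797, above the 1864 of H19. This divides counts over a row span of 162050 bp by 3597 bp of annotated exon, so it is not a level of the exons. The Peg13 sum was at 7.48 per kb of the Trappc9 row span and 747 per kb of the Peg13 gene.

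The gene whose profile over the 6 short-read libraries was most like that of a member was found among 12101 named genes with a mean of at least 100 normalized counts, by Pearson correlation of log2(normalized count + 1). It was Dnah7b for Airn (r = 0.9999), Dync2h1 for Kcnq1ot1 (r = 0.999), Gdpd5 for H19 (r = 0.998) and P2rx7 for the Peg13 sum, which includes Trappc9 (r = 0.999). Correlation compares the shape of profiles and not the size of a change. Mean counts in chromatin and nucleoplasm were 4653 and 612 for Dnah7b, 12412 and 5716 for Dync2h1, and 1350 and 1795 for Gdpd5. These changes were smaller than those of Airn, Kcnq1ot1 and H19. For P2rx7 the means were 1799 and 1977. The libraries fall into 2 fractions, which these correlations mainly follow, and they are given as a description.

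Of 32 other genes of the members' clusters, 29 had a row and 23 were tested. In chromatin, 8 were lower (34.8%, against 20.9% of all features) and 2 were higher (8.70%, against 26.9%), and 13 did not pass, with a median log2 fold change of -0.26 against 0.38 over all features. In the Kcnq1 cluster 3 of 7 tested genes were lower, against 20.9% of all features, and none was higher, against 26.9%. Cdkn1c, a cyclin-dependent kinase inhibitor, had a log2 fold change of -2.10 (adjusted p = 0.0162), Phlda2, a placental growth regulator, -2.09 (adjusted p = 0.00137), and the tetraspanin Cd81 -1.63 (adjusted p = 5.02e-04, all by limma).

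Elsewhere, Mrpl23, a mitochondrial ribosomal protein gene beyond H19, was at -1.44 (adjusted p = 2.08e-04) and Chrac1, a chromatin remodelling subunit near Peg13, at -1.85 (adjusted p = 2.51e-04). The 2 genes higher in chromatin were Wdr25 near Meg3 (log2 fold change 0.73, adjusted p = 0.010) and Npepl1 beside Gnas (log2 fold change 0.33, adjusted p = 0.0150, all by limma). With ERCC scaling 7 cluster genes were lower and 5 higher. Of 3 further imprinted noncoding RNAs, Snhg14 and B830012L14Rik had no row under their name, and A330076H08Rik was at 0.

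Of 20 factors that maintain imprints or silence chromatin, 18 had a row and 17 were tested. In chromatin, 7 were higher (41.2%, against 26.9% of all features), 5 lower (29.4%, against 20.9%) and 5 did not pass, with a median log2 fold change of 0.48 against 0.38 over all features. Ezh2, the Polycomb histone H3 lysine methyltransferase, was at 1.98 (adjusted p = 3.70e-04), and Smchd1, a structural protein of silenced chromosomes, at 1.57 (adjusted p = 7.42e-05, both by limma). Hnrnpk, an RNA-binding protein linked to Airn and Kcnq1ot1 spreading, was at -1.36 (adjusted p = 1.65e-04 by limma), a call lost with ERCC scaling (-0.63, adjusted p = 0.0787). With ERCC scaling 10 were higher and 0 lower.

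The fractions themselves were checked with transcripts of known place. The nuclear noncoding RNAs Neat1, Pvt1 and Malat1 had log2 fold changes of 4.38, 3.93 and 3.82, and the messenger RNAs Gapdh and B2m had -2.07 and -2.67, all with adjusted p below 0.05 by limma. The values of Airn and Kcnq1ot1 lay within or above the range of the nuclear reference RNAs, and that of H19 was near that of Gapdh, a description that was not tested.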

How the data were processed

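The members and gene lists were chosen with earlier results of these data known. Per the methods and the submitters' processing notes, the authors aligned short reads with HISAT2 2.1.0 to mm10 plus ERCC sequences, assembled and re-estimated transcripts with StringTie, made gene counts with prepDE from StringTie coverage and deposited them divided by DESeq2 size factors (normalized signal). They aligned long reads with minimap2 without strand and deposited StringTie TPM values per transcript. In each short-read library the deposited values were whole multiples of a single step for 100% of rows, within 0.01. The counts before size factors, called reads here, were recovered from that step.

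Here, rows were summed per member by strand and overlap with GENCODE M21. limma 3.58.1 (R 4.3.3) was fitted with a mean-variance trend to log2(value + 1), without a replicate block. On simulated data with 200 genes changed by a log2 fold of 3 among 35270, it recovered 100% of them, and 3.38% of its calls were unchanged genes. The changed genes had a mean of at least 10, so low members and smaller changes were not covered. The simulation used a set dispersion and no culture effect. It also changed far fewer genes than the 9631 and 7477 features called in the data. The 3.38% is therefore not an error rate for these data. DESeq2 1.42.0 and edgeR 4.0.16 on recovered reads, pseudocounts of 0.1 and 10, filters, scalings, row definitions, single libraries left out and the replicate block were alternatives. Ratios within a library, the gene span as length, the fits of the Peg13 row alone and the fit without replicate 3 were added after the data were seen. Members were named with all values, and of each list the 3 called genes with the largest change plus the partners Kcnq1, Igf2r, Gnas, Trappc9, Igf2 and Dlk1. Gene names came from RefSeq annotation. The floor given for a count of 0 covers counting error only.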

Additional observations from a re-analysis of the deposited data

How the results depend on the processing

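Airn and Kcnq1ot1 stayed above 4 fold and past the test in all 20 alternatives that gave them a value, with log2 fold changes of 3.94 to 4.90 and 4.36 to 5.27. Using RefSeq accession rows alone gave values for Meg3, Rian and Mirg only, so 0 members were called and 0 met the cheRNA thresholds there. In the other alternatives 3 or 4 members were called, and 2 met the cheRNA thresholds.

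ERCC scaling moved H19 to -1.05, the Peg13 sum to 0.64, its own row to 0.25, Igf2r to -0.24, Trappc9 to 0.96, Gnas to -1.09, the features lower in chromatin to 3108, the cluster genes higher to 5 and the factors lower to 0, so that Peg13 took the place of H19 among the members called. The scaling itself adds about 0.73 to the log2 fold change of features with many reads. Why the share of spike-in counts differed between the fractions was not tested. Features at the cheRNA thresholds, 5525 as reported, numbered 2980 with a pseudocount of 10 and 3498 with quantile normalization. Cluster genes higher in chromatin numbered 1 without a mean-variance trend and 1 with edgeR. Rian passed without a mean-variance trend (adjusted p = 0.0447) and without chromatin replicate 2 (0.0430, by limma).

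With 1 library left out, log2 fold changes ranged from 4.12 to 4.20 for Airn, 4.36 to 4.84 for Kcnq1ot1, -2.10 to -1.56 for H19, -0.23 to 0.048 for the Peg13 sum, turning positive without chromatin replicate 3, and -0.63 to -0.27 for its own row. Kcnq1 ranged from -0.22, without nucleoplasm replicate 3, to 0.57. Between 1 and 3 cluster genes were higher. The lone libraries of the long-read data are in the report.

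Mean long-read TPM over both strands was 7.24 for Kcnq1ot1. For Peg13 it was 1.94 when models had to lie at least 80% inside the gene and 6.12 when they had to reach 1 TPM. The Airn chromatin level, counted over its whole rows, was 1174 per kb of gene span and 38797 per kb of annotated exon.

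Deviations of same-numbered chromatin and nucleoplasm libraries correlated with r = 0.0980, 0.0888 and 0.221, and the main fit did not take the numbers to pair them. Every library nevertheless correlated best with its own number. Replicate 3 also had the highest fibroblast and the lowest cardiomyocyte marker sums in both fractions. Pairing by culture is therefore possible, and the main fit ignores it. With the replicate block, 10309 features were higher and 8453 lower, the H19 fold change was -1.79 (adjusted p = 7.93e-04 by limma), the Peg13 row, lower in chromatin at each replicate number, passed at -0.48 (adjusted p = 0.0211), as it did at -0.37 without replicate 3, Igf2 kept its call (adjusted p = 4.64e-04), and no other member changed its call. Depth limits what can be said of Meg3, Rian, Mirg and Nespas, and 3 libraries per fraction limit the rest. Groups of 3 were too small for a search for outlying libraries.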
